A study of Mus musculus with 74 samples.

Results

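Slices through mouse embryonic stem cell nuclei were divided by whether they held a window of 40 kb on chromosome 17 that carries ribosomal DNA-like sequence. Of 74 libraries, 69 had at least 1% of the windows of chromosomes 1 to 19 scored as present. The chromosome 17 window was present in 20 of these 69 (28.99%) and absent from 49. The 5 libraries under 1% were all negative for it and were left out. The coverage nearest below the limit was 0.827% of autosomal windows (f14c7), and the values nearest above it were 1.68% (f14f7) and 1.69% (f14g2), both negative for the window. The positive and negative sets are defined by a measured call and are not groups of the study, which labels all libraries alike.

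Each library holds 1 nuclear profile, the part of a single nucleus that falls in a thin cryosection and is cut out by laser microdissection. All profiles came from the 46C line, undifferentiated mouse cells of strain 129/Ola with a green fluorescent reporter at Sox1. The cells grew on gelatin in medium with serum and LIF and were moved for the last day to serum-free ESGRO Complete medium. DNA was amplified with the Sigma WGA4 kit and made into Nextera libraries. The names begin with f13 (31 kept libraries) or f14 (38), which the labels do not explain and which were treated as a possible technical batch. The window was present in 7 of 31 f13 libraries (22.6%) and in 13 of 38 f14 libraries (34.2%; two-sided Fisher's exact test, p = 0.424). The study lists all of these libraries under the same biological replicate, so p-values measure the spread between slices of that replicate.

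Genome architecture mapping (GAM) reads spatial proximity from how often loci occur in the same slice. Ribosomal RNA genes lie in tandem arrays near the centromeres of several mouse chromosomes, and active arrays gather in nucleoli, where ribosome subunits are made. Assemblies leave most of these arrays out, so reads from them can be placed on the few related copies that an assembly does contain. The comparison therefore asks whether slices with such a copy hold more of the chromosomes linked to nucleoli. Chromosomes 12, 15, 16, 18 and 19 formed the nucleolus-linked set and chromosomes 1 to 11, 13 and 14 the other autosomes; chromosome 17 was in neither. Which of the 5 carry ribosomal arrays differs between mouse strains, and the sources used here do not give it for 129/Ola. No assay of nucleoli or of ribosomal DNA itself is in these data, and reads of the window from chromosome 17 and from arrays elsewhere cannot be told apart in presence calls.

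The window runs from 39960001 to 40000000 on chromosome 17 (mm9). The annotation places 1 gene in it, AY036118 (ENSMUSG00000045999.8), a pseudogene of 725 bp on the minus strand at 39985048 to 39985772, with a GC content of 68.28%. A block of 6 kb around it, from 39980001 to 39986000, has a GC content of 64.05%, against 36.82% in the rest of the window. In steps of 1 kb the block ranged from 55.9% to 71.6%, and no step outside it exceeded 46.2%. A later RefSeq annotation lists AY036118 as a long non-coding RNA and not as a pseudogene. Its neighbours there are Rn18s-rs5, a pseudogene related to 18S ribosomal RNA, and Esp38, of a family of exocrine gland-secreted peptides. The stretch printed here is shown to give the kind of sequence that the split rests on: 200 bases across the lower end of AY036118, chr17:39984948-39985147 of the assembly NCBIM37 (mm9), plus strand, 5′ to 3′, with the bases inside the annotated gene in capitals.

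AY036118, lower end: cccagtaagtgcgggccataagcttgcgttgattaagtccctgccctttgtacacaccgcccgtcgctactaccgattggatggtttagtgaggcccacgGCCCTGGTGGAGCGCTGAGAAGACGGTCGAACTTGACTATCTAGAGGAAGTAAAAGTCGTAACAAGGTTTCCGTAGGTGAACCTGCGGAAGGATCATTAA

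Both the lower-case part and the capitals resemble the end of 18S ribosomal RNA as it is known from the molecule. The capitals mark only bases inside the annotated gene, which is on the other strand and runs on past the stretch, and the GC-rich block begins well before it. Of 5970 distinct sequences of 31 bases in the block, 1013 (16.97%) also occur elsewhere in the assembly. The window with the most of them, on chromosome 6 from 3120001 to 3160000, held 539. That window was present in 10 kept libraries, 4 of 20 with the chromosome 17 window and 6 of 49 without it, which did not pass the exact test stratified by coverage (two-sided, p = 0.709).

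The surroundings of the window are a description only, since the split rests on this locus. The window was present in 20 kept libraries, against a median of 4 for chromosome 17 windows and for autosomal windows, and 10 of 61816 autosomal windows reached 20 or more. The next most frequent window of chromosome 17 was present in 16. Of the 20 positive libraries, 3 (15%) were also positive for a direct neighbour, 1 for the lower and 3 for the upper. For positive calls of other chromosome 17 windows this share was 72.8%, and for other autosomal windows 73.2%. In 13 of the 20 positive libraries the 50 windows within 1 Mb were all absent, as they were in 42 of the 49 negative ones. Windows within 1 Mb were present in 7.70% of positive and 1.84% of negative libraries on average, and within 2 Mb in 7.95% and 1.98%. Most of this came from f14c5 and f14g1, which held 33 and 29 of the 50 windows within 1 Mb. The positive mean within 1 Mb was 4.63% without f14c5, 5.05% without f14g1 and 1.67% without both. In most positive slices the call thus stood alone in its neighbourhood.

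**Figure D1:**
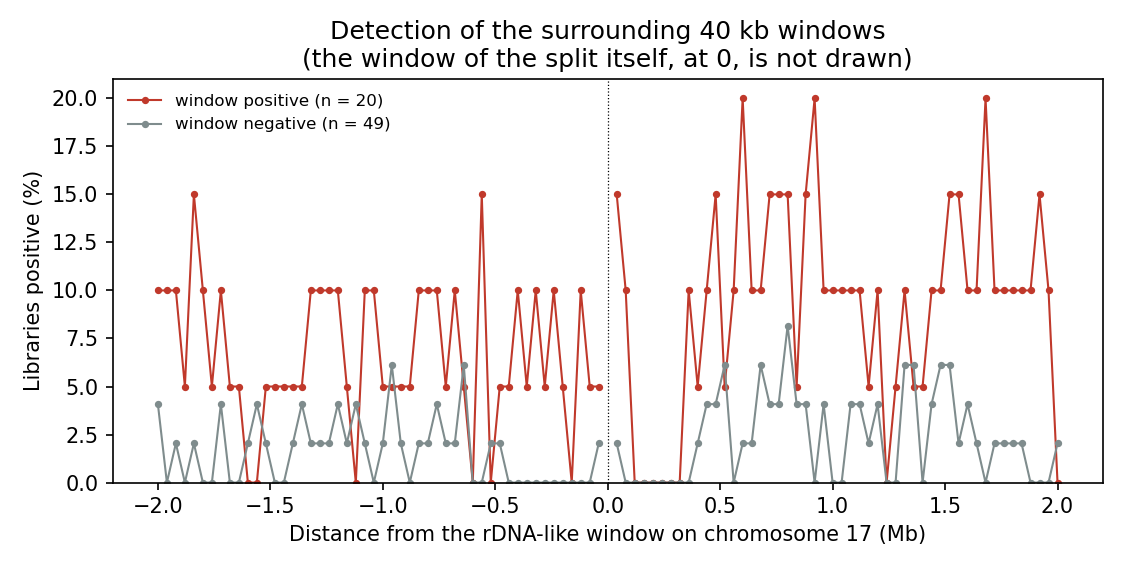
Share of libraries positive (%) for each window of 40 kb up to 2 Mb from the rDNA-like window, against distance in Mb, for the 20 libraries with the window (red) and the 49 without it (grey). The direct neighbours were present in 5% and 15% of the positive set, and the red line lies above the grey line at most distances, largely through 2 libraries.

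Coverage is described first, because a split on any window favours slices that hold more windows. Autosomal coverage, the percent of windows present, had a lowest, median and highest value of 3.13%, 7.20% and 13.5% with the window, against 1.68%, 5.10% and 12.7% without it. The extremes were f14c6 and f14b3 among the positive and f14f7 and f14b1 among the negative libraries. The ranges overlapped almost fully, with 16 of 20 positive libraries above the median of the negative set. Mean coverage without chromosome 17 was 7.20% against 5.59%, a difference of 1.60 percentage points (SE 0.665, 95% interval 0.274 to 2.93). Detection in proportion to coverage would give 7.15% and 5.61%, a difference of 1.54, within the standard error of the measured one. The test against equal coverage is therefore no result about the window (permutation test, p = 0.0190, adjusted p = 0.0481 over 8 results). From the lowest to the highest of 5 coverage strata, 3, 2, 3, 5 and 7 libraries held the window, where detection in proportion to coverage gives 2.01, 2.91, 3.94, 5.04 and 6.10. The differences that follow were adjusted for the coverage of the other autosomes, with calls permuted only within the 5 strata. Coverage of the nucleolus-linked chromosomes themselves is not part of that adjustment, although it too adds to what a slice holds.

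The nucleolus-linked chromosomes were covered to 1.09%, 6.91% and 25.6% (lowest, median, highest) in slices with the window and to 0.244%, 4.44% and 13.01% in slices without it. Of the positive libraries, f14b3 at 25.6% and f13b2 at 13.1% lay above the highest negative value, and otherwise the sets overlapped. Relative to the other autosomes, mean coverage of the nucleolus-linked set was 1.11 times as high in the positive slices and 0.867 times as high in the negative ones. The excess, nucleolus-linked minus other coverage, was -3.88, -0.0531 and 14.8 percentage points with the window, and -7.00, -0.749 and 6.16 without it. Adjusted for coverage, it was higher by 1.76 percentage points with the window (SE 0.895, 95% interval -0.0311 to 3.54), with 12 of 20 positive libraries above the negative median. This did not pass the threshold of 0.05 (two-sided permutation test, p = 0.0661, adjusted p = 0.0912 over the 2 nucleolus-linked results).

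The centromere-proximal 20 Mb gave values of the same kind. Mouse chromosomes have their centromere at one end, so the first 20 Mb lie next to it and next to any ribosomal array. Coverage of these ends on the nucleolus-linked chromosomes was 1.36%, 7.66% and 31.6% with the window and 0%, 3.48% and 17.96% without it. The corresponding ends of the other autosomes were covered to 1.86%, 6.99% and 15.1% with the window and to 0.0308%, 4.49% and 22.2% without it. The positive set was higher at its median on both kinds of chromosome end, and all ranges overlapped. The excess of nucleolus-linked over other ends was -4.42, 0.726 and 16.6 percentage points with the window and -13.3, -1.06 and 11.3 without it. The adjusted difference was 2.28 percentage points (SE 1.26, 95% interval -0.236 to 4.79, permutation test, p = 0.0912, adjusted p = 0.0912), with 13 of 20 positive libraries above the negative median. These 20 Mb include windows with unknown bases. With such windows left out the difference was 2.69 and did not pass (permutation test, adjusted p = 0.0910).

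Both results moved with single libraries, and their values differed between the name prefixes. Without f14b3, which had 13.5% coverage overall and a nucleolus-linked excess of 14.8 percentage points, the differences were 1.14 and 1.56. Without f14d2, a change in the other direction, both passed the threshold at an adjusted p of 0.0451 with differences of 1.93 and 2.58. Within f13 the differences were -0.129 for whole chromosomes and 0.146 for the first 20 Mb, and within f14 they were 2.80 and 3.72. The difference between prefixes was 2.93 and 3.57 and did not pass (permutation test of the interaction, p = 0.141 and 0.168, adjusted p = 0.336 for both over 10 results). Within coverage strata, the mean excess of whole nucleolus-linked chromosomes was higher with the window in 4 of 5. For the first 20 Mb it was higher in 3 of 5. The widest gap was in the top stratum, at 1.502 with the window against -3.15 without it for whole chromosomes and 1.42 against -6.39 for the first 20 Mb. That stratum held 7 libraries with the window and 6 without it, and f14b3, with an excess of 14.8 and 16.6, was among the 7.

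**Figure D2:**
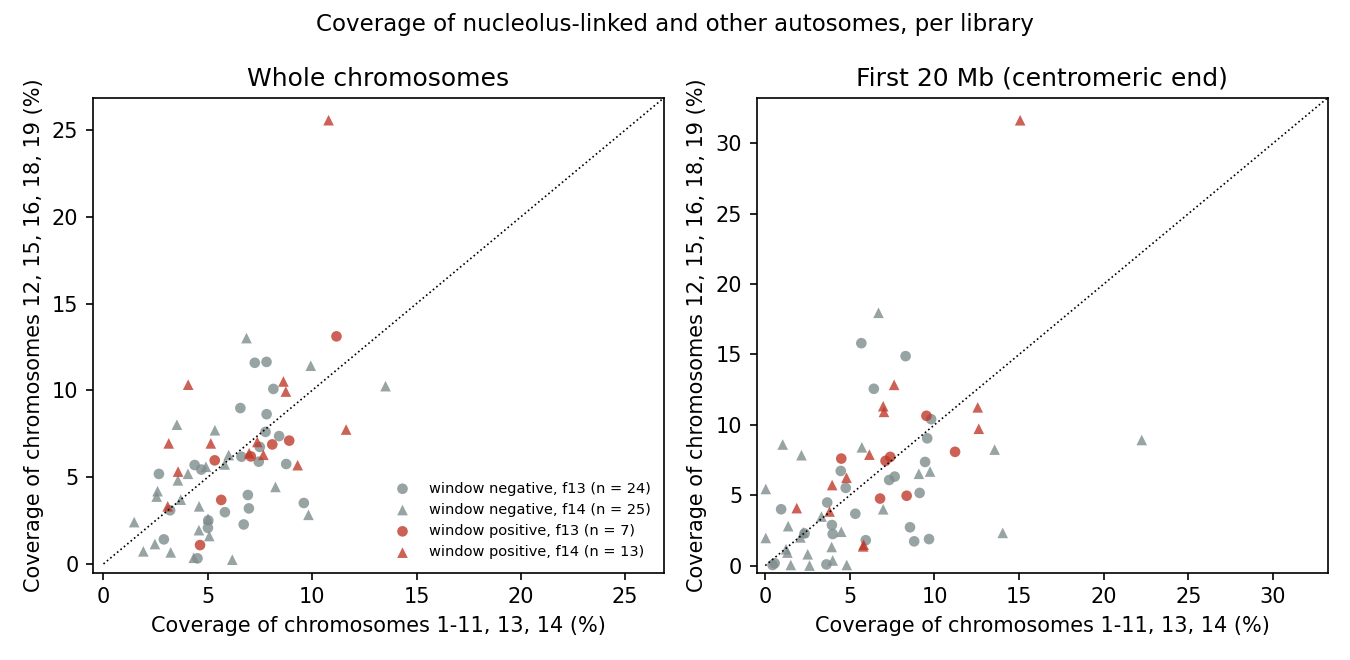
Coverage of the nucleolus-linked chromosomes (vertical, % of windows) against coverage of the other autosomes (horizontal, %) in each library, for whole chromosomes (left) and the first 20 Mb (right). Red marks the 20 libraries with the rDNA-like window, grey the 49 without it, circles f13 and triangles f14, and the dotted line is equal coverage. The sets overlap on both sides of the line, and 1 red triangle at 25.6% and 31.6% stands above all others.

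Counting chromosome ends in place of windows gave a difference that passed. A nucleolus-linked end was taken as present when at least 10% of the windows in its first 20 Mb were positive. Slices with the window held 1.85 of the 5 ends on average and slices without it 0.837. None of the 5 was present in 2 of 20 positive slices, against 23 of 49 negative ones. In 6 positive slices 1 end was present, in 8 slices 2, in 2 slices 3, in 1 slice 4 and in 1 slice all 5. The negative set had 16 slices with 1 end, 7 with 2, 1 with 3, 2 with 4 and 0 with 5. The adjusted difference was 0.769 ends (SE 0.269, 95% interval 0.232 to 1.31; permutation test, p = 0.00829, adjusted p = 0.0422 over 8 results). The same count for the 13 ends of the other autosomes was 3.95 against 2.63, an adjusted difference of 0.513 (95% interval -0.245 to 1.27) that did not pass (permutation test, p = 0.188).

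The count of ends moved with the way it was taken. Relative to the count over the other 13 ends, the difference was 0.572 ends and did not pass (permutation test, adjusted p = 0.130), so that it was not shown to be particular to the nucleolus-linked set. With a limit of 5% of windows per end the difference was 0.963 and passed (permutation test, adjusted p = 0.0378). With a limit of 20% it was 0.103, and without chromosome 12 it was 0.381, and neither passed. Nor did it pass within f13, at 0.404 (permutation test, adjusted p = 0.424), or within f14, at 0.989 (adjusted p = 0.0612). Without the libraries that had a direct neighbour of the window positive it was 0.806 and did not pass (permutation test, adjusted p = 0.0640). It lost the call in 15 of 69 runs that left out 1 library, with differences from 0.661 to 0.873.

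The shares of slices holding each end are given as a description. They were not adjusted for the higher coverage of slices with the window, and differences among the ends were not tested. The first 20 Mb of chromosome 12 were present in 10 of 20 slices with the window and 5 of 49 without it, and those of chromosome 18 in 7 and 3. Chromosome 16 stood at 8 of 20 against 10 of 49 and chromosome 15 at 7 against 13. Chromosome 19 was nearly level, at 5 of 20 (25%) against 10 of 49 (20.4%). Among the other autosomes the shares were also higher with the window for most ends, with 9 of 20 against 9 of 49 for chromosome 3 and 10 against 12 for chromosome 11, and lower for chromosome 13 at 4 against 15.

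No single chromosome passed after adjustment over 36 tests, 18 whole and 18 ends (0% called, lowest adjusted p 0.314, permutation test). At an unadjusted p under 0.05 there were 3 of 18 whole chromosomes (16.7%) and 2 of 18 ends (11.1%). Chromosome 12 was the only nucleolus-linked one among them, in both forms. Its whole coverage was 8.48% ± 6.09 with the window (SD, n = 20) and 4.30% ± 5.67 without it (n = 49), an adjusted difference in excess of 3.47 percentage points (95% interval 0.383 to 6.55). For its first 20 Mb the adjusted difference in excess was 5.98 (95% interval 1.03 to 10.9). In unadjusted coverage of these 20 Mb, which is not the excess, 18 of 20 positive libraries lay above the negative median of 0.4%. The spread between libraries exceeded the adjusted difference both for the whole chromosome and for its first 20 Mb.

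The other nucleolus-linked chromosomes gave differences of 2.41 for chromosome 16, 2.59 for chromosome 18 and 1.63 for chromosome 19, and of -1.53 for chromosome 15. At their ends the values were 1.19, 4.76 and 0.353, and -0.892 for chromosome 15. Values above 0 were found for 4 of these 5 chromosomes, against 12 of 18 for all autosomes tested (66.7%), in both forms. The median difference was 2.41 percentage points over the nucleolus-linked chromosomes and 0.895 over the others, and 1.19 and 0.0331 at the ends. Among the other autosomes the highest value was that of chromosome 14, at 3.9996, above every nucleolus-linked chromosome, and the lowest was that of chromosome 7, at -3.01. At the ends the highest was chromosome 11, at 5.39, and the lowest chromosome 13, at -3.49. Leaving out chromosome 12 lowered the difference of the set to 1.17 for whole chromosomes and 1.35 for the first 20 Mb.

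**Figure D3:**
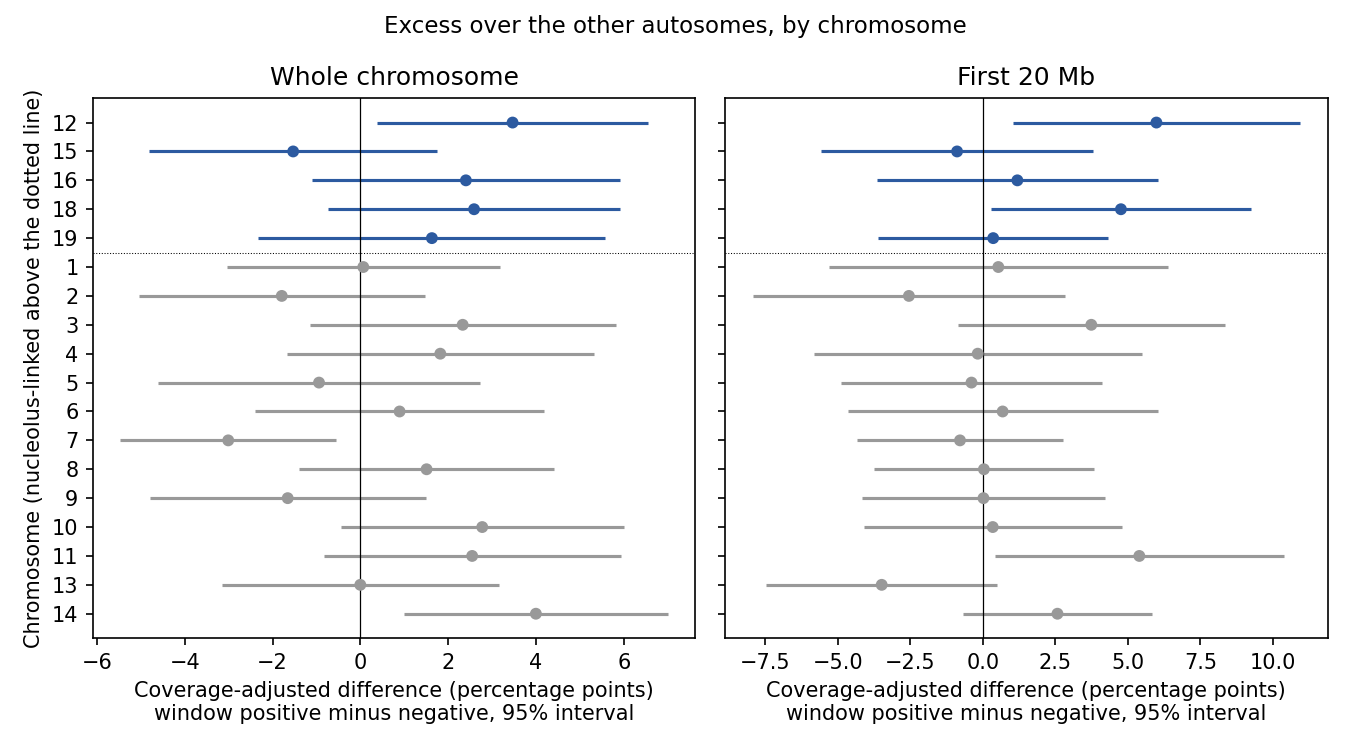
Difference between libraries with and without the rDNA-like window (percentage points, adjusted for coverage) in the excess of each autosome over the other autosomes 1 to 11, 13 and 14, for whole chromosomes (left) and first 20 Mb (right). Points are estimates and lines 95% intervals (n = 20 and 49), with the nucleolus-linked chromosomes in blue above the dotted line. Chromosome 12 lies at 3.47 and 5.98, chromosome 14 at 3.9996 for the whole chromosome and chromosome 7 at -3.01.

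The genome was then scanned in 2316 bins of 1 Mb. A bin was present when any of its windows was, and was compared with the number of positive slices that coverage strata alone would give. None passed after adjustment (0% called, lowest adjusted p 0.390, stratified exact test). At an unadjusted p under 0.05, 124 bins (5.35%) were more frequent in slices with the window and 24 (1.04%) less frequent, and 1504 (64.9%) were above the number that coverage gave. In the nucleolus-linked chromosomes 346 of 462 bins were above that number, 45 were more frequent and 1 less. In their first 20 Mb 72 of 85 were above it and 15 (17.6%) more frequent, against 153 of 219 and 13 (5.94%) in the first 20 Mb of the other autosomes. Adjacent bins share stretches of the same slice, so these are counts of linked positions. Chromosome 12 alone gave 34 of the 45 (28.8% of its 118 bins), while chromosome 15 gave 2 of 101, chromosome 16 gave 3 of 96, chromosome 18 gave 4 of 88 and chromosome 19 gave 2 of 59. Outside the set, chromosome 14 had 18 of 122 more frequent and chromosome 7 had 11 of 140 less frequent. Of the 24 less frequent bins, chromosome 5 held 5 and chromosome 2 held 3.

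The bin with the lowest p lay on chromosome 9 from 35000001 to 36000000. It was present in 20 of 20 slices with the window and 26 of 49 without it (stratified exact test, p = 0.000388), and a single often-detected window in it, described further on, was present in 44 of the 46 libraries that held the bin. The first protein-coding genes of the bin are Tirap, an adaptor of Toll-like receptors, Srpr, a part of the receptor for the signal recognition particle, Foxred1, Fam118b and Rpusd4. The next bins were both on chromosome 12. The bin from 10000001 to 11000000, with Nt5c1b, a cytosolic nucleotidase, and Rdh14, a retinol dehydrogenase, was present in 12 of 20 against 6 of 49 (exact p = 0.000411). The bin from 7000001 to 8000000, with Gm17295 and Apob, which encodes the main protein of low-density lipoprotein, was present in 12 against 7 (exact p = 0.000505). Against the number that coverage gave, these chromosome 12 bins were 2.06 and 2.096 times as frequent.

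Of the bins less frequent with the window, those ranked 2 and 3 by p were on chromosome 7. These adjacent bins from 95000001 to 97000000 were present in 2 of 20 and 1 of 20, against 20 of 49 each (exact p = 0.00761 and 0.00562). They hold Grm5, a metabotropic glutamate receptor, Ctsc, the protease cathepsin C, Rab38, Gm10159, Tmem135, Fzd4, a Wnt receptor, Prss23, 1700019G06Rik and A230065N10Rik.

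Windows present in many libraries were compared next. Outside chromosome 17, 12 windows of chromosomes 1 to 19 and X were present in at least 25% of the kept libraries, 6 of them starting within the first 4 Mb of their chromosome. Of the 12, 4 had an adjusted p under 0.05 (33.3%; stratified exact test with adjustment over the 12), the chromosome 16 window among them, and 5 had an unadjusted p under 0.05 (41.7%). On chromosomes 8 and 16, 1 window each was below 25% in the negative set and entered only through the positive slices. Over the 10 windows at or above 25% in the negative set, an alternative chosen after seeing the data, 3 passed, with adjusted p of 0.0237 for the chromosome 9 window with Rpusd4, 0.0247 for the first chromosome 9 window and 0.0342 for the chromosome 11 window (exact test). The adjusted p given with each window is that over these 10. The adjustment over the 12 draws on the chromosome 16 window, which was selected through the positive slices.

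The largest adjusted difference was on chromosome 16 from 3240001 to 3280000, with the gene model AC191865.1, and is given as a description because this window was selected through the slices in which it is frequent. It was present in 11 of 20 slices with the chromosome 17 window and 7 of 49 without it, 38.6 percentage points apart after adjustment (SE 11.05). On chromosome 11 the window from 3000001 to 3040000 holds Pisd-ps1 and Sfi1, a centrin-binding protein of centrosomes. It was present in 13 of 20 against 13 of 49 (36.5 points, exact test, adjusted p = 0.0342). On chromosome 9 the window from 35080001 to 35120000 holds Rpusd4, a pseudouridine synthase of mitochondrial RNA, and Gm5614. It was present in 19 against 25 (34.9 points, exact test, adjusted p = 0.0237), and it lies in the top bin of the scan. The first window of chromosome 9 with sequence, from 3000001 to 3040000, holds gene models such as Gm16869, Gm10722 and Gm11168 in satellite-rich sequence and was present in 48 kept libraries. It was present in 19 of 20 against 29 of 49 (27.6 points, exact test, p = 0.00494, adjusted p = 0.0247). Both were held by 19 slices, this window alone by 29, the chromosome 17 window alone by 1 and neither by 20.

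At the low end, the chromosome 2 window from 98480001 to 98520000, with Gm10801 and Gm10800, was present in all 69. The chromosome X window from 139880001 to 139920000 was present in 14 of 20 against 29 of 49 (1.28 points, 95% interval -23.6 to 26.1). The chromosome 11 window from 3040001 to 3080000, with Sfi1, Gm11399 and Gm11400, was present in 17 against 34 (8.20 points, 95% interval -14.6 to 31.01), although its lower neighbour was among those that passed. These 12 windows share between 0 and 6 of the block's sequences of 31 bases. Of those that passed, the chromosome 9 window with Rpusd4 shares 6, the most of all 12. The chromosome 11 window from 3000001 and the first chromosome 9 window share 0. Sharing some is common: outside the block, 17893 windows of the assembly hold at least 1 of these sequences, and 78 of the sequences occur at over 100 places. Whether shared sequence bears on the differences was not tested.

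Slices with the chromosome 17 window held 9 of the 12 windows on average and slices without it 5.96, not adjusted for coverage. Every window but that of chromosome 2 was more frequent with it in unadjusted shares, so a higher share was not particular to those that passed. The differences of the 3 that passed over the 10 kept their direction within both prefixes. For the chromosome 9 window with Rpusd4 the counts were 7 of 7 with and 16 of 24 without the chromosome 17 window in f13, and 12 of 13 and 9 of 25 in f14. With the adjustment over the 12, which draws on the chromosome 16 window, the calls rested on few libraries. Without f13a4, f14a5 or f14d5, 0 of the 12 passed, and without f14c6 2 passed. The chromosome 11 window also lost its call without f13c2, f13e2, f13e4, f14a1, f14c1 or f14g1. In these runs the adjusted p over the 12 (exact test) ranged from 0.0142 to 0.0897 for the first chromosome 9 window. It ranged from 0.0127 to 0.0828 for the other chromosome 9 window and from 0.0142 to 0.0828 for chromosome 11.

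**Figure D4:**
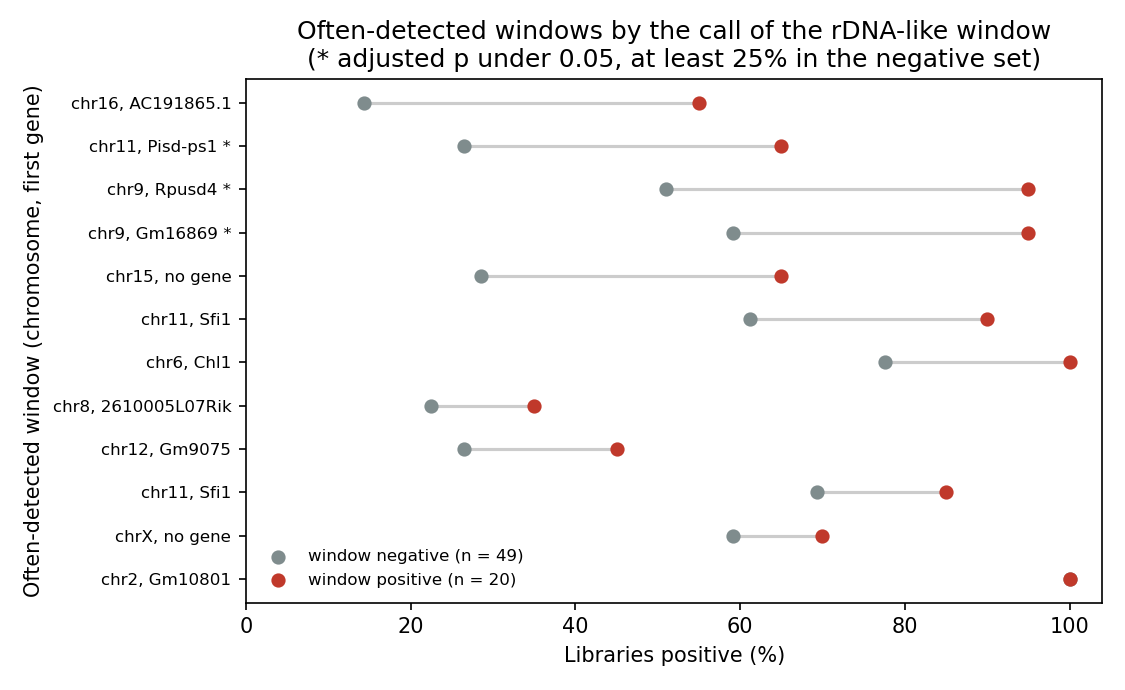
Percent of libraries positive for each of the 12 often-detected windows, named by chromosome and first gene, in the 20 libraries with the rDNA-like window (red) and the 49 without it (grey). Asterisks mark the 3 windows with an adjusted p under 0.05 in the exact test stratified by coverage and at least 25% in the negative set; the chromosome 16 window, selected through the positive slices, carries none. Windows are ordered by the difference adjusted for coverage, while the points are unadjusted shares. They run from 51.02% to 95% for the chromosome 9 window with Rpusd4 and from 14.3% to 55% for the chromosome 16 window, and both sets reach 100% for the chromosome 2 window.

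Slices with the window held fewer genes per positive window on average, a difference that several alternatives given below did not keep past the threshold. Per positive window they held 0.687, 0.766 and 0.831 protein-coding genes (lowest, median, highest), against 0.667, 0.803 and 1.02 in slices without it. Of the 20, 1 lay above the median of the negative set, while the lower parts of both ranges overlapped. The adjusted difference in means was -0.0461 genes per window (SE 0.0177, 95% interval -0.0815 to -0.0108; permutation test, p = 0.0105, adjusted p = 0.0422). The GC content of positive windows was 41.3%, 41.8% and 42.4% with the window and 41.4%, 42.1% and 43.1% without it, and 5 of 20 lay above the negative median. It differed by -0.284 percentage points (SE 0.118, 95% interval -0.519 to -0.0492; permutation test, p = 0.0240, adjusted p = 0.0481).

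Both differences were larger in f13 than in f14. In f13 the gene density and GC content differed by -0.0796 (permutation test, adjusted p = 0.000240) and -0.594 (adjusted p = 0.00392), whereas in f14 they differed by -0.0169 and -0.0344, without passing (permutation tests, adjusted p = 0.820 and 0.894). The difference between prefixes itself had p = 0.0235 and 0.0142 (permutation tests of the interaction, adjusted p = 0.0783 and 0.0710) and did not pass. Over windows of the other autosomes alone the differences were -0.0412 and -0.293, and neither passed (permutation tests, adjusted p = 0.0537 and 0.0704). With no coverage filter the adjusted p was 0.0640 and 0.0558, and without the libraries that had a direct neighbour of the window positive 0.0640 and 0.110, so that neither passed. GC content also did not pass with a limit of 2% coverage (permutation tests, adjusted p = 0.0624). The calls were lost in 18 and 40 of 69 runs that each left out 1 library, and within the range of -0.0500 to -0.0402 genes and -0.317 to -0.250 percentage points no run changed the sign.

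**Figure D5:**
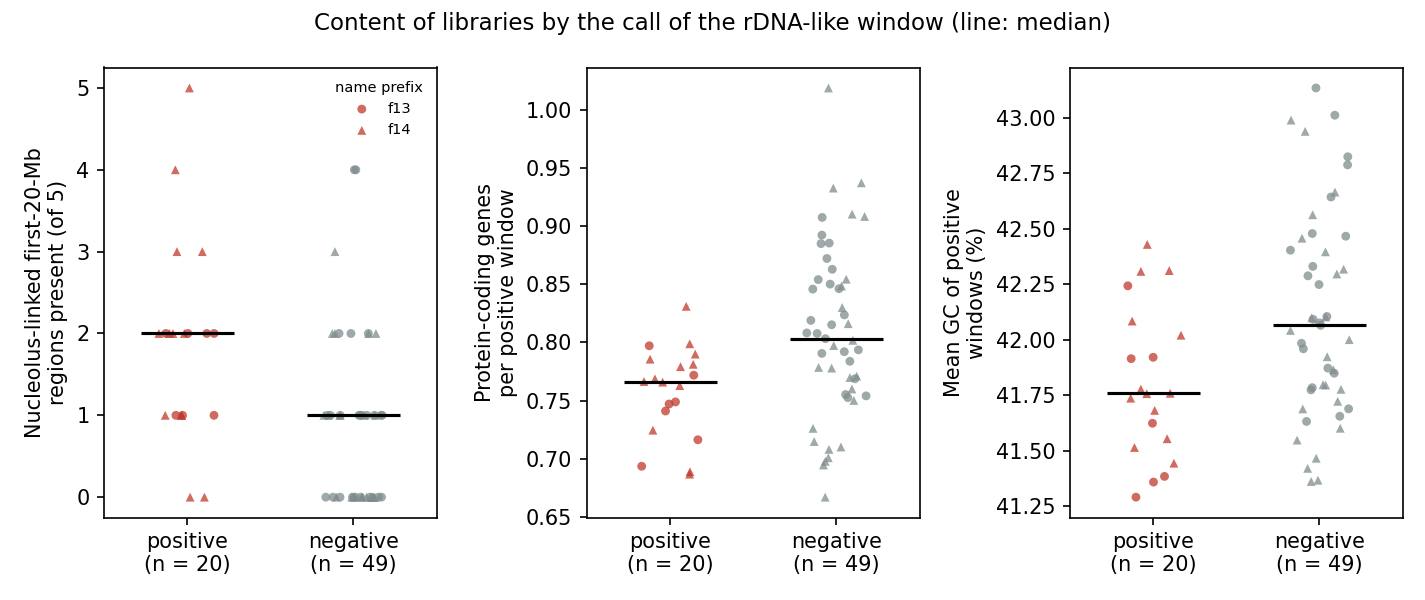
Number of nucleolus-linked first-20-Mb regions present (of 5), protein-coding genes per positive window and mean GC content (%) of positive windows in each library, for 20 libraries with the rDNA-like window (red) and 49 without it (grey). Circles are f13, triangles f14 and black lines medians, which are 0.766 against 0.803 for genes per window. The sets overlap in all 3 panels, with the highest gene densities and GC contents in the grey points.

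Other measures were compared in the same way. First-20-Mb coverage of the other autosomes differed by 0.417 percentage points (95% interval -1.02 to 1.85; permutation test, adjusted p = 0.697) after adjustment. At the opposite end, the last 20 Mb of all autosomes but 17 differed by 0.292 (95% interval -1.07 to 1.65; permutation test, adjusted p = 0.697), and without f14a1 the value was -0.0597. This pooled value averages opposite ones, -2.08 within f13 (adjusted p = 0.117) and 2.06 within f14 (adjusted p = 0.0612, permutation tests). Their difference of 4.13 had the lowest p of the 10 interactions (permutation test, p = 0.00540, adjusted p = 0.0540) and did not pass. Chromosome X differed by -0.614 (95% interval -2.27 to 1.04; permutation test, adjusted p = 0.634). Adjacent-window concordance is the share of positions beside a positive call that were also positive, with each side counted by itself. It falls when windows are missed. This concordance differed by -2.93 percentage points (95% interval -8.60 to 2.73, permutation test, adjusted p = 0.489). None of these passed.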

How the data were processed

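The deposited table gives, for 68162 windows of 40 kb of mm9 and 74 libraries, the authors' call of presence (1) or absence (0), a unit of its own kind that is neither a count nor scaled for depth. The submitters' processing notes name Bowtie2 2.1. For multiplex libraries the study's methods remove duplicate reads and call windows in GAMtools above a set number of reads; for the single-profile libraries this is not given in the sources used here, and neither are quality criteria. The deposited table keeps no reads. Read numbers listed with the study for each library were not used here, so the part of depth in the differences was not tested. Calling windows by their number of reads turns shallow sequencing into missing windows and lets reads of repeats make a window positive.

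Libraries were split by the call of the chromosome 17 window. The members, the nucleolus-linked list and the tests were chosen with earlier results of these data known. Differences are coefficients of the call in a linear fit with the coverage of autosomes 1 to 11, 13 and 14, with standard error and 95% interval from that fit. Calls were permuted 100000 times within 5 coverage strata (two-sided; 10000 times when leaving out a library; library coverage itself was permuted without strata). Bins present in at least 5 kept libraries and often-detected windows used a stratified exact test. Benjamini-Hochberg adjustment ran over 2 nucleolus-linked results, 8 other results, 36 autosome tests, all bins and the 12 windows, with a threshold of 0.05. The adjusted p printed with each often-detected window is that over the 10 at or above 25% in the negative set. Named were all 5 nucleolus-linked chromosomes, the extremes of the others, the 3 bins with the lowest p in each direction (of those less frequent, the one with the lowest p is not reported here), the 3 often-detected windows with the highest and lowest differences and the most frequent chromosome 9 window, with their genes. Libraries at the coverage extremes and next to the limit of 1% were named too, as were, after their values were seen, those that changed a call. Genes, GC content and sequence came from NCBIM37 and GENCODE. RefSeq gave only names, neighbours and a second gene type for AY036118. Python 3.11.15, NumPy 2.4.6, SciPy 1.17.1 and pandas 2.3.3 were used. The statistics were tested on simulated data.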

Additional observations from a re-analysis of the deposited data

Results flagged for a closer look

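The mitochondrial window, which no comparison used, was present in 69 of 69 kept libraries. A count of 0 would have allowed a share of up to 4.35%. It was thus present in all of the 20 slices with the chromosome 17 window and the 49 without it.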

How the results depend on the processing

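Apart from the runs that left out 1 library each, of 119 alternatives over 14 results, 100 planned and 19 chosen after seeing the data, 95 kept direction and side of the threshold, 20 no longer passed and 4 changed sign. The sign changes were the nucleolus-linked chromosomes, whole (-0.129), and the last 20 Mb (-2.08) in f13, and in f14 the first 20 Mb of the other autosomes (-0.304) and concordance (0.509). Calls lost in f13 were coverage (0.884) and number of ends (0.404), and in f14 coverage (2.23), GC (-0.0344), gene density (-0.0169) and ends (0.989). With no filter on coverage GC was -0.285 and gene density -0.0465; with at least 2% coverage, library coverage was 1.43 and GC -0.285. Setting isolated windows to negative gave a coverage difference of 1.22. Merging windows to 200 kb kept direction and side for the nucleolus-linked results but raised their values. In percent of merged windows they were 3.82 for whole chromosomes and 4.01 for the first 20 Mb, against 1.76 and 2.28 at 40 kb. Without the libraries that had a direct neighbour of the window positive, coverage was 1.61, GC -0.246, gene density -0.0452 and ends 0.806. The number of ends was 0.103 at 20% of windows, 0.572 relative to the other ends and 0.381 without chromosome 12. Over the other autosomes only, GC was -0.293 and gene density -0.0412. The cause of these changes was not tested.

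Leaving out each library in turn gave 1.14 to 2.05 for the whole nucleolus-linked chromosomes, 1.56 to 2.58 for their first 20 Mb, 0.216 to 0.832 for the other first 20 Mb, -0.0597 to 0.525 for the last 20 Mb, 1.26 to 1.82 for coverage, -1.01 to -0.331 for chromosome X, -4.18 to -2.02 for concordance, -0.317 to -0.250 for GC, -0.0500 to -0.0402 for gene density, 0.661 to 0.873 for ends and 0 to 4 for often-detected windows. Among these runs the last 20 Mb changed sign without f14a1, and both nucleolus-linked results passed without f14d2. Autosomes and bins gave 0 calls under every alternative run. No paired analysis was possible because the labels give 1 group and no replicate numbers shared between groups. Presence calls limit all of this: an absent window may be missed, and the split has 20 libraries on one side.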
